A study of Mus musculus with 6 samples.

Results

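Glycolysis and the response to low oxygen were followed through 40 named genes that cover glucose and lactate transport, the glycolytic enzymes, the subunits and regulators of the hypoxia-inducible factor (HIF), and HIF target genes. They were chosen by symbol with earlier results of these data known, so their counts beside those of all genes are a description. The count table, which has 23999 rows, holds 39 of them. Pkm2 has no row of its own, and Pkm, the current name of the pyruvate kinase M gene, does. All 39 passed the filter on low counts and were among the 14458 genes tested.

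The cells were mouse embryonic stem cells, pluripotent cells kept in culture, and poly(A) RNA was sequenced from them. All of them carried a floxed element labelled -5 and an exogenous, V5-tagged copy of mouse Nanog. The cells received 4-hydroxytamoxifen (4OHT, n = 3), a ligand commonly used to activate Cre recombinase fused to an oestrogen receptor, or ethanol (Vehicle, n = 3), for 6 days. The labels name neither a Cre line nor the number of clones. The series title concerns a Nanog enhancer, and the comparison of 4OHT with Vehicle asks how expression differs after treatment of these floxed cells.

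Glycolysis turns glucose into pyruvate in a preparatory phase that consumes ATP and a pay-off phase that returns it, and lactate dehydrogenase then interconverts pyruvate and lactate. HIF is a dimer of an oxygen-sensitive alpha subunit and ARNT. In the presence of oxygen, EGLN prolyl hydroxylases mark the alpha subunit for destruction through VHL, and without oxygen the dimer binds hypoxia response elements and raises many glycolytic genes. Much of this control acts on the protein, so that RNA levels of the subunits do not report HIF activity. Mouse embryonic stem cells use glycolysis heavily and combine it with respiration.

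The 4OHT libraries held 55194644, 515388 and 31307423 counts and the Vehicle libraries between 20030423 and 52250671. A single read in 4OHT replicate 2 equals 1.91 CPM (counts scaled to a library total of 1000000), so that library says little about low genes. Nanog had 177, 172 and 194 CPM in 4OHT libraries, against 631, 660 and 641 CPM in Vehicle libraries. Reads of the tagged copy can count under the same symbol. Of 9 tested pluripotency markers 1 was higher (Sox2), 2 were lower (Nanog and Pou5f1) and 6 did not pass. Their summed levels were 5935 to 6310 CPM in 4OHT and 6600 to 6807 CPM in Vehicle libraries. The gap between these sums includes that of Nanog itself. All 10 primitive endoderm markers were higher, with sums of 252 to 304 CPM in 4OHT and 148 to 163 CPM in Vehicle libraries. Lama1 and Col4a1 made up most of each sum and rose 1.46-fold and 1.68-fold. The median log2 ratio of the 10 was 2.46, and 7 of them rose at least 2-fold. None of these 10 was at 0 in a whole group, but 3 had no read in a 4OHT library. Trophoblast markers summed to 108 to 113 CPM in 4OHT and 106 to 109.6 CPM in Vehicle libraries (3 of 7 tested higher, 3 lower). Tfap2c made up most of each sum, with 88.2, 85.9 and 83.3 CPM in 4OHT and 75.7, 72.5 and 73.3 CPM in Vehicle libraries. Gata3, Hand1 and Tfap2c were higher, Krt7, Krt8 and Krt18 were lower, and Cdx2 and Elf5 were too low to be tested. Fibroblast markers summed to 8.19 to 9.55 CPM in 4OHT and 17.5 to 18.7 CPM in Vehicle libraries (1 of 3 tested lower, Thy1). Thy1 made up most of each sum, with 5.94, 7.64 and 6.43 CPM in 4OHT and 15.5, 15.6 and 16.4 CPM in Vehicle libraries. The other tested markers, Col1a1 and Col1a2, had log2 ratios of 0.10 and 0.90 and did not pass. Postn was at 0 in both groups, Dcn at 0 in 4OHT and Lum at 0 in Vehicle libraries. The part of these cell types in the differences below was not tested, and in bulk RNA a change in the number of cells of a type and a change in RNA per cell cannot be told apart.

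Of the 39 genes, 18 fell in 4OHT cells, 5 rose and 16 did not pass the test (edgeR, adjusted p under 0.05 over all tested genes). Across all 14458 genes 22.4% passed, 10.5% lower and 11.9% higher. DESeq2 called 14 members lower and 4 higher, against 2.83% and 3.93% of all genes, and edgeR with the replicate numbers as a block called 19 and 6, against 13.5% and 14.6%. The median log2 ratio of 4OHT to Vehicle from the unblocked edgeR fit was -0.22 over the 39, beside -0.003 for all tested genes. The 3 libraries of 4OHT lay below all 3 of Vehicle for 20 of the 39 and above them for 7, against 16.5% and 14.7% of all tested genes. The falls were mostly small: Ndufa4l2, Aldoc and Bnip3 fell by a factor of 2 or more, a size reached by 1.54% of all genes, and no member rose by as much. Summed over the 39 genes, the level was 11990.4, 12101 and 12471 CPM in 4OHT libraries, against 13181, 13538 and 14627 CPM in Vehicle libraries.

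**Figure D1:**
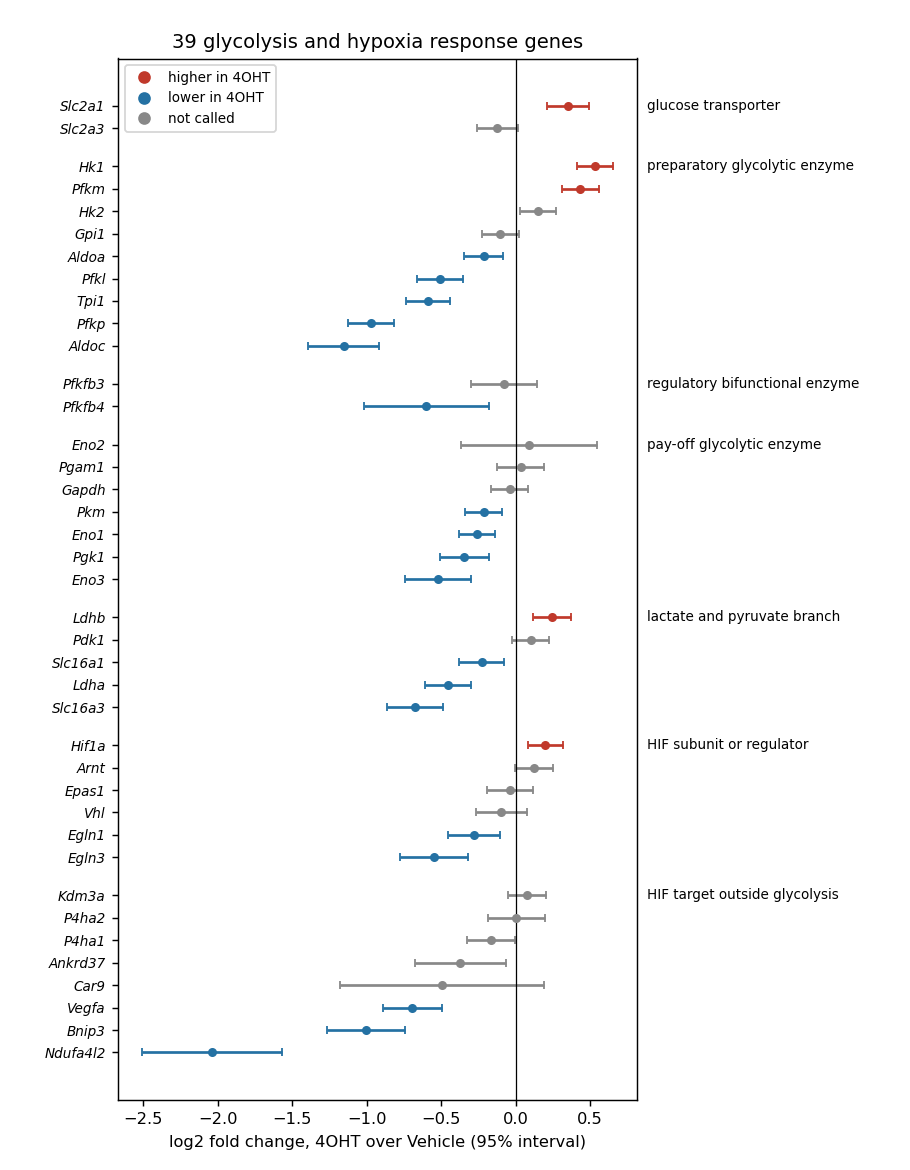
Log2 ratio of 4OHT over Vehicle for each of the 39 genes on the x axis, grouped by role down the page, with bars for the 95% interval of the edgeR fit on 6 libraries. Blue genes were lower, red genes higher and grey genes did not pass the test; Ndufa4l2 lies lowest at -2.04 and Hk1 highest at 0.54.

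The sequence that HIF contacts has the core ACGTG or GCGTG, which was searched on both strands (CACGT and CACGC on the other) in RefSeq windows of 300 bases, 250 before and 50 after each start, on GRCm38.p6. Matches that overlap were counted separately, so the palindrome CACGTG, also bound by MYC and other factors, counts as 2. The core was present in 40 of 52 windows of 36 members (76.9%), against 43.8% of all 32851 windows in the table. Members' windows were richer in G and C, with a median of 61.7% against 52.7%. Among windows of 65% G and C or more, 90.5% of the members' 21 windows and 71.7% of all windows held the core, and at 55% to 65% the shares were 76.2% and 58.1%. Counted by gene, it was found in a window of 32 of the 36 members (88.9%), against 46.7% of all 27025 genes with a window. These were 5 of the 5 genes that rose, 16 of the 17 with a window that fell and 11 of the 14 that did not pass. The 250 bases upstream of the start are shown for 6 members with a single window: Pfkp, Bnip3, Slc16a3 and Pgk1, which fell and hold the core, Tpi1, which fell without it, and Slc2a1, which rose and holds it. Each runs 5′ to 3′ along the gene, with matches in capitals.
Pfkp (chr13:6648772-6649021, minus strand): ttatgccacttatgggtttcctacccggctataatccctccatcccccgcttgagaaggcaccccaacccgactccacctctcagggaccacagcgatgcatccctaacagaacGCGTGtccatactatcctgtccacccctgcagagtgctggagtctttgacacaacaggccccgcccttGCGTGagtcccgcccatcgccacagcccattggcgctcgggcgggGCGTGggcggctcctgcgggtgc
Bnip3 (chr7:138909507-138909756, minus strand): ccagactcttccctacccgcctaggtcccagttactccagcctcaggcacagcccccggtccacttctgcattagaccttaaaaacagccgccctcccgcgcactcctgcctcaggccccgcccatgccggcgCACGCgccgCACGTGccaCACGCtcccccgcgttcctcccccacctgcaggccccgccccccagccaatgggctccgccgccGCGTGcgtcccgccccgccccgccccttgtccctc
Slc16a3 (chr11:120948817-120949066, plus strand): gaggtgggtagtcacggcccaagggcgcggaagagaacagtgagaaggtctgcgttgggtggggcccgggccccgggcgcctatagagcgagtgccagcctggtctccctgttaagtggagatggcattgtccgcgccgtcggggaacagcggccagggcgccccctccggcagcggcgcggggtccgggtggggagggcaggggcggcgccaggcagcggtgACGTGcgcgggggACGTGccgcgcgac
Pgk1 (chrX:106186850-106187099, plus strand): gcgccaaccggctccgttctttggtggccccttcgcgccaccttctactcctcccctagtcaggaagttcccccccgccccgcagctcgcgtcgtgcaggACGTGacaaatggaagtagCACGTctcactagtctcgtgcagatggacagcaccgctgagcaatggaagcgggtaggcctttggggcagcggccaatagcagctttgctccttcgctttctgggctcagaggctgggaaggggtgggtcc
Tpi1 (chr6:124814159-124814408, minus strand): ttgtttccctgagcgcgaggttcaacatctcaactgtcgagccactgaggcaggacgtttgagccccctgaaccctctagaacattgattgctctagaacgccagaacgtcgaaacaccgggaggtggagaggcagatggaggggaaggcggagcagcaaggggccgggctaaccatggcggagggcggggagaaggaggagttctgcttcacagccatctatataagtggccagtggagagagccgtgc
Slc2a1 (chr4:119108495-119108744, plus strand): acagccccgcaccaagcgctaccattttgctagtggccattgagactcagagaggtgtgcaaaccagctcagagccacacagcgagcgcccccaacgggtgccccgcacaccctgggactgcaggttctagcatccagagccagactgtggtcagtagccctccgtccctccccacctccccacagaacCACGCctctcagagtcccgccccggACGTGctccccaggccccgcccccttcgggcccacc
The printed 250 bases contain 3 matches for Pfkp, 5 for Bnip3 and 2 each for Slc16a3, Pgk1 and Slc2a1, and the whole window of Pfkp contains 4. A match is a string of letters and not a measured binding site.

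Of the 2 glucose transporter genes, 1 rose and 1 did not pass. Slc2a1, which encodes the widely expressed glucose transporter GLUT1, had 450.5, 506 and 520.1 CPM in 4OHT libraries, against 362, 375 and 412 CPM in Vehicle libraries. All 4OHT values exceeded all Vehicle values, and the gene rose (log2 ratio 0.35, SE 0.07, edgeR adjusted p = 0.000678). Slc2a3, the gene of the high-affinity transporter GLUT3, had 1077, 1088 and 1212 CPM in 4OHT and 1157, 1235 and 1298 CPM in Vehicle libraries. Its groups overlapped and it did not pass (log2 ratio -0.12, 95% interval -0.26 to 0.01, edgeR adjusted p = 0.198). Under the replicate block the gene passed (edgeR adjusted p = 0.0261), as it did when 4OHT replicate 3 was left out (0.0353).

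In the preparatory phase 5 of 9 enzyme genes fell and 2 rose. The genes that rose were those of the first enzyme and of the muscle-type phosphofructokinase. Hk1, a hexokinase gene, had 184, 193 and 193 CPM in 4OHT and 129.8, 134 and 127 CPM in Vehicle libraries, a rise of 1.45-fold (SE 0.06 in log2 units, edgeR adjusted p = 7.24e-07). Hk2, the other hexokinase gene measured, stood at 198 ± 4.53 CPM in 4OHT and 178 ± 5.93 CPM in Vehicle cells (SD, n = 3 each) without overlap. It did not pass (log2 ratio 0.15, edgeR adjusted p = 0.0748), while it passed under the replicate block (edgeR adjusted p = 0.0423) and when 4OHT replicate 3 was left out (0.0371). Gpi1, the glucose-6-phosphate isomerase gene, had a log2 ratio of -0.10 (95% interval -0.23 to 0.02), and 11.5% of its exon bases overlap the opposite-strand gene Gm26762.

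Phosphofructokinase, the committed and most regulated step, is built from liver (Pfkl), muscle (Pfkm) and platelet (Pfkp) type subunits, and their genes moved in different directions. Pfkp had 138, 122 and 118 CPM in 4OHT libraries, against 239, 238 and 275 CPM in Vehicle libraries. It fell to 51% of its Vehicle level (log2 ratio -0.97, SE 0.07, edgeR adjusted p = 7.2e-09). Pfkl had 207, 157 and 187 CPM in 4OHT and 274, 253 and 296 CPM in Vehicle libraries and fell by 0.51 in log2 units (SE 0.07, edgeR adjusted p = 3.28e-05). Pfkm went the other way, with 80.1, 72.6 and 81.1 CPM in 4OHT and 58.2, 59.9 and 60.002 CPM in Vehicle libraries (log2 ratio 0.43, SE 0.06, edgeR adjusted p = 1.79e-05). None of the 3 had overlapping groups.

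Aldolase splits the 6-carbon sugar and triosephosphate isomerase interconverts the products. Aldoa, the main aldolase gene, had 1372, 1398 and 1488 CPM in 4OHT and 1570.1, 1617 and 1764 CPM in Vehicle libraries, a fall to 86.1% (edgeR adjusted p = 0.0168). Without Vehicle replicate 3 its edgeR adjusted p was 0.124, and without 4OHT replicate 2 it was 0.0524. Aldoc, the brain-type aldolase gene, had 420, 1 and 208 reads in 4OHT and 809, 303 and 470 reads in Vehicle libraries, which is 7.67, 1.91 and 6.79 CPM in 4OHT against 15.3, 15.1 and 17.9 CPM in Vehicle libraries. The groups were far apart (log2 ratio -1.15, SE 0.11, edgeR adjusted p = 2.17e-07), also without the library that held the single read (log2 ratio -1.14). Tpi1 had 265, 273 and 268 CPM in 4OHT and 370.1, 386 and 451 CPM in Vehicle libraries, with closely matched 4OHT values, and fell to 66.6% (log2 ratio -0.59, SE 0.07, edgeR adjusted p = 3.09e-06).

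Pfkfb3 and Pfkfb4 encode bifunctional enzymes that make and remove the allosteric activator of phosphofructokinase. Pfkfb3 did not pass (14.4 ± 1.87 CPM in 4OHT and 14.8 ± 1.41 CPM in Vehicle cells, SD, n = 3 each). Pfkfb4 was low, with 79, 0 and 52 reads in 4OHT and 143, 39 and 54 reads in Vehicle libraries. These are 1.44, 0 and 1.70 CPM in 4OHT against 2.70, 1.94 and 2.06 CPM in Vehicle libraries, a fall with an edgeR adjusted p of 0.0373. The call is fragile: the adjusted p was 0.762 with DESeq2, 0.146 with limma-voom on quantile-normalized counts, and in edgeR 0.158 without 4OHT replicate 1, 0.0506 without 4OHT replicate 2 and 0.289 without Vehicle replicate 1.

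**Figure D2:**
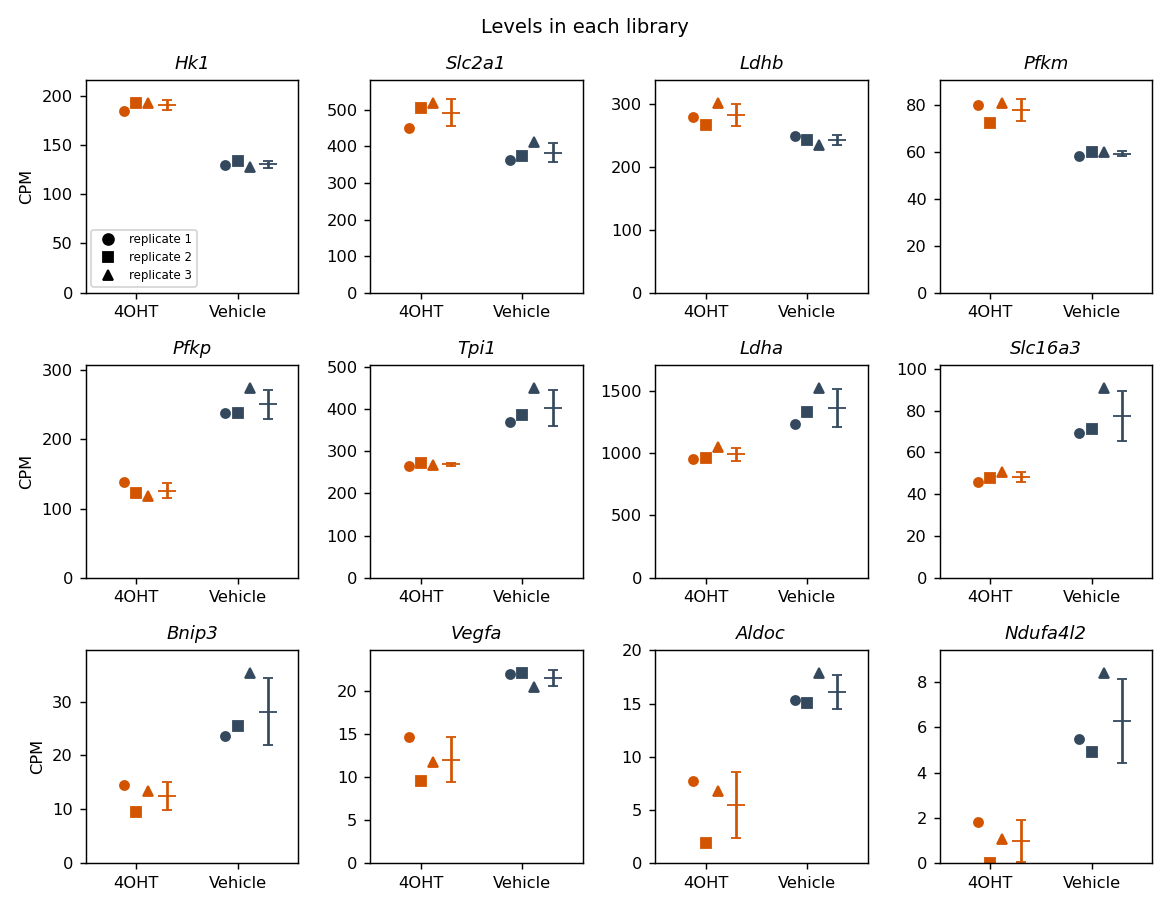
CPM (y axis, from 0) of 12 members in each 4OHT and Vehicle library, with the marker shape giving the replicate number and the bar beside each group its mean ± SD (n = 3). The groups do not overlap in any panel: Hk1, Slc2a1, Ldhb and Pfkm are higher in 4OHT and the other 8 lower.

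In the pay-off phase 4 of 7 enzyme genes fell and the other 3 did not pass. Pgk1, phosphoglycerate kinase, had 126, 132 and 131 CPM in 4OHT and 146, 156 and 188 CPM in Vehicle libraries (log2 ratio -0.34, SE 0.08, edgeR adjusted p = 0.0032). Pkm, pyruvate kinase, had 2998, 3007 and 2969 CPM in 4OHT and 3373, 3414 and 3626 CPM in Vehicle libraries and fell to 86.1% (edgeR adjusted p = 0.0113, and 0.079 without Vehicle replicate 3). Counts per gene do not separate its splice forms M1 and M2. Eno3, the muscle-type enolase gene, had 9.79, 5.73 and 8.62 CPM in 4OHT and 12.2, 14.6 and 13.2 CPM in Vehicle libraries, a fall of 0.52 in log2 units by edgeR (adjusted p = 0.00116) that DESeq2 did not call (adjusted p = 0.123).

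Eno1, the main enolase gene, had 853, 823 and 877 CPM in 4OHT and 999, 1015 and 1054 CPM in Vehicle libraries (log2 ratio -0.26, SE 0.06, edgeR adjusted p = 0.00246). A near-identical gene, Eno1b, took counts equal to 127.9% to 129.8% of those of Eno1 in 4OHT and 126% to 126.5% in Vehicle libraries, so how the reads were split between the copies is uncertain. Eno1b also fell (log2 ratio -0.23, edgeR adjusted p = 0.00598). Gapdh, often used as a reference gene, had 1028, 1054 and 1063 CPM in 4OHT and 1023, 1067 and 1139 CPM in Vehicle libraries, at a log2 ratio of -0.04 (95% interval -0.16 to 0.09). In the annotation 71 genes hold near-identical sequence across 50% or more of its transcript, which need not make each a copy of the gene. The 3 of them in the count table (Gm12070, Gm5069 and Vmn2r60) took counts equal to 0.141% of those of Gapdh. Pgam1, a phosphoglycerate mutase, and Eno2, the neuronal enolase gene, had log2 ratios of 0.04 and 0.09 and did not pass, and Eno2 rested on at most 89 reads a library. The annotation also holds genes matched in this way to Gpi1, Pgk1, Pkm, Ldha, Ldhb and Bnip3, and none of the matched genes has a row in the count table.

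After pyruvate, the lactate branch had 3 falls and 1 rise among 5 genes. Ldha, whose subunit predominates in glycolytic tissue, had 954, 962 and 1051 CPM in 4OHT libraries, against 1229, 1325 and 1524 CPM in Vehicle libraries. It fell to 73% (log2 ratio -0.45, SE 0.07, edgeR adjusted p = 0.000108). Ldhb, the subunit of the heart-type enzyme, rose, with 279, 267 and 303 CPM in 4OHT and 250.02, 244 and 235 CPM in Vehicle libraries (log2 ratio 0.24, SE 0.06, edgeR adjusted p = 0.00561). Neither gene had overlapping groups.

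The lactate exporter gene Slc16a3 (MCT4) had 46.1, 47.7 and 50.8 CPM in 4OHT and 69.3, 71.3 and 91.0 CPM in Vehicle libraries and fell to 62.7% (log2 ratio -0.67, SE 0.09, edgeR adjusted p = 1.27e-05). Slc16a1, the gene of the related carrier MCT1, had 158, 199 and 182 CPM in 4OHT and 189, 206 and 211 CPM in Vehicle libraries. Its groups overlapped, and its fall of 0.23 in log2 units (edgeR adjusted p = 0.0266) was lost with DESeq2 (adjusted p = 0.131) and in edgeR without 4OHT replicate 1 (0.119), Vehicle replicate 2 (0.081) or Vehicle replicate 3 (0.125). Pdk1, whose kinase holds pyruvate out of the citric acid cycle and which HIF raises, stood at 294 ± 12.1 CPM in 4OHT and 278 ± 11.4 CPM in Vehicle cells (SD, n = 3 each) and did not pass (log2 ratio 0.10, 95% interval -0.02 to 0.22).

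In the phosphofructokinase and lactate dehydrogenase families some isoenzyme genes fell and others rose. The mix was also measured as each gene's share of its family's reads per base of gene model, within each library. Pfkm made up 36.7%, 40.01% and 39.7% of phosphofructokinase in 4OHT and 22.8%, 24.4% and 21.7% in Vehicle libraries. The share of Pfkp was 15.7% ± 1.19 in 4OHT and 24.1% ± 0.697 in Vehicle cells (SD, n = 3 each). Which of these shares is larger depends on the lengths, 13401 bases for Pfkp and 3340 for Pfkm. By CPM, without length, Pfkp was above Pfkm in every library of both groups. Ldhb took 37.6% ± 0.623 of the lactate dehydrogenase pair in 4OHT and 27.5% ± 2.78 in Vehicle cells, and Hk1 took 40.1% ± 1.06 of the hexokinase pair in 4OHT and 33.9% ± 1.33 in Vehicle cells. The share of Slc2a1 among the glucose transporters was 47.5% ± 1.37 in 4OHT and 39.2% ± 0.55 in Vehicle cells, and that of Slc16a3 among the lactate carriers 18.4% ± 1.51 in 4OHT and 24.1% ± 2.11 in Vehicle cells.

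None of these shares overlapped between groups. Each had an exact two-sided permutation p of 0.1, the smallest that 3 against 3 libraries can give. Benjamini-Hochberg adjustment over the 24 shares of 11 families gave 0.16. In a pair the shares are complements and have the same p, so the 24 are not independent tests. The share of Pfkl was 45.5% ± 2.17 in 4OHT and 52.9% ± 1.29 in Vehicle cells, but on raw counts without gene length its difference had the opposite sign (0.298 percentage points). The lengths come from another build than the counts and pool the exons of all annotated transcripts of a gene. Shares in the pairs Hif1a and Epas1, Egln1 and Egln3, P4ha1 and P4ha2, and Pfkfb3 and Pfkfb4 overlapped between groups.

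**Figure D3:**
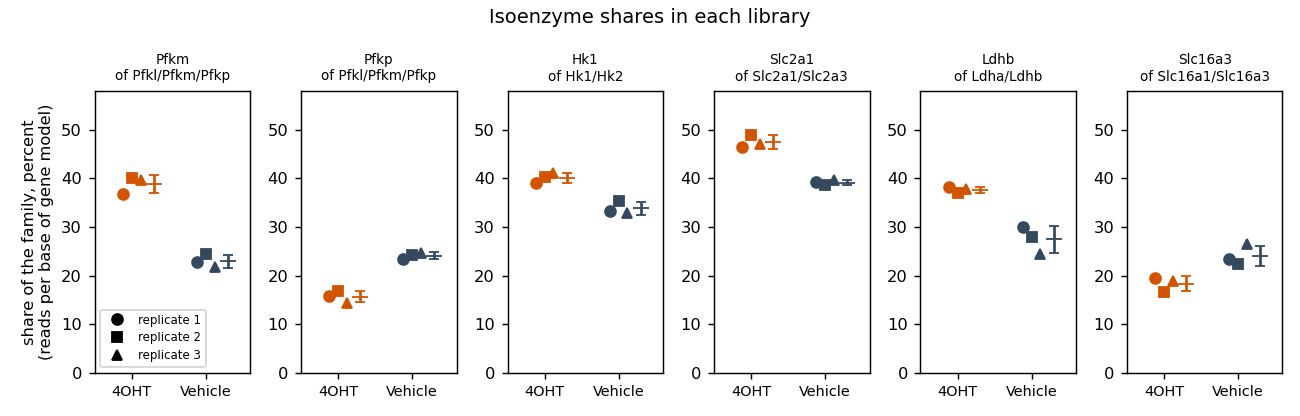
Share of 6 genes in the reads per base of their family (y axis, percent, from 0) in each 4OHT and Vehicle library, with the marker shape giving the replicate number and bars for mean ± SD (n = 3). Pfkm, Hk1, Slc2a1 and Ldhb hold a larger share in every 4OHT library and Pfkp and Slc16a3 a smaller one.

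On the same length-scaled basis, with the levels of each library set to a total of 1000000, Pkm led in both groups (2152 ± 66.4 in 4OHT and 2473 ± 69.4 in Vehicle cells, SD, n = 3 each). Aldoa followed with 1375 ± 24.3 in 4OHT and 1585 ± 75.7 in Vehicle cells, and then Ldha with 1074 ± 31.3 in 4OHT and 1462 ± 139.9 in Vehicle cells. Pkm did not overlap with Aldoa in either group. Aldoa and Ldha did not overlap in 4OHT libraries, while in Vehicle libraries their ranges did, although Aldoa was above Ldha within each library. Car9 was lowest with 0.476 ± 0.418 in 4OHT and 1.09 ± 0.443 in Vehicle cells. The order between genes depends on the lengths, which are those used for the shares. By mean CPM Pkm and Aldoa also led in both groups. In 4OHT cells, however, Slc2a3 (1126 ± 75.1 CPM) and Gapdh (1048 ± 18.05 CPM) then stood above Ldha (989 ± 53.8 CPM, SD, n = 3 each).

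Among the subunits and regulators of HIF, 1 gene rose, 2 fell and 3 did not pass. Hif1a, the broadly expressed alpha subunit, had 220.1, 218 and 218 CPM in 4OHT and 194, 185 and 193 CPM in Vehicle libraries, a rise of 0.20 in log2 units (SE 0.06, edgeR adjusted p = 0.0142). The adjusted p was 0.0724 with DESeq2, and in edgeR 0.153 without Vehicle replicate 2 and 0.0506 without Vehicle replicate 3. Epas1, which encodes the alpha subunit HIF-2α, had 49.6, 66.8 and 46.2 CPM in 4OHT and 52.3, 50.04 and 47.6 CPM in Vehicle libraries and did not pass (edgeR adjusted p = 0.763). Arnt, the shared partner, had 128, 151 and 135 CPM in 4OHT and 122, 119 and 124 CPM in Vehicle libraries, without overlap, and did not pass either (log2 ratio 0.13, edgeR adjusted p = 0.153, which became 0.0404 when 4OHT replicate 1 was left out). Vhl had 25.4, 21.0 and 29.1 CPM in 4OHT and 27.6, 28.4 and 30.7 CPM in Vehicle libraries (log2 ratio -0.10, edgeR adjusted p = 0.446).

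Of the oxygen-sensing prolyl hydroxylase genes, Egln1 and Egln3 fell. Egln2, the remaining HIF prolyl hydroxylase gene, is not among the 40 and is named here after its values were seen. It stood at 51.5 ± 8.98 CPM in 4OHT and 57.1 ± 1.53 CPM in Vehicle cells (SD, n = 3 each), its groups overlapped and it did not pass (log2 ratio -0.04, 95% interval -0.19 to 0.11, edgeR adjusted p = 0.718). Egln3, itself a HIF target, had 20.8, 21.0 and 20.4 CPM in 4OHT libraries, against 25.2, 29.3 and 36.6 CPM in Vehicle libraries (log2 ratio -0.55, SE 0.11, edgeR adjusted p = 0.000852). The 4OHT values of Egln3 lay close together, although that of replicate 2 rests on 11 reads, and its Vehicle values were spread, with replicate 3 highest. Egln1, the main hydroxylase gene, had 24.8, 22.9 and 26.7 CPM in 4OHT and 28.7, 29.9 and 34.8 CPM in Vehicle libraries (log2 ratio -0.28, edgeR adjusted p = 0.0208). That call was lost with DESeq2 (adjusted p = 0.296), with limma-voom on quantile-normalized counts (0.0971) and in edgeR without Vehicle replicate 3 (0.16).

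Of 8 HIF targets outside glycolysis 3 fell and the other 5 did not pass. Ndufa4l2, a mitochondrial protein that lowers respiration in hypoxia, showed the lowest fold change of all members. It had 100, 0 and 33 reads in 4OHT and 290, 99 and 221 reads in Vehicle libraries, or 1.83, 0 and 1.08 CPM in 4OHT against 5.48, 4.93 and 8.41 CPM in Vehicle libraries (log2 ratio -2.04, SE 0.23, edgeR adjusted p = 1.03e-06). Without the 4OHT library at 0 the log2 ratio was -2.02. Bnip3, a mitochondrial protein that promotes mitophagy, had 14.6, 9.55 and 13.4 CPM in 4OHT and 23.6, 25.5 and 35.4 CPM in Vehicle libraries (log2 ratio -1.005, SE 0.13, edgeR adjusted p = 5.32e-06). The opposite-strand gene Gm45507 overlaps 22.3% of its exon bases, so part of its reads may belong there. Vegfa, the angiogenic growth factor, had 14.7, 9.55 and 11.8 CPM in 4OHT and 21.9, 22.1 and 20.4 CPM in Vehicle libraries (log2 ratio -0.69, SE 0.10, edgeR adjusted p = 1.84e-05).

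The other 5 targets had log2 ratios between -0.49 and 0.08. They were Car9 (a carbonic anhydrase, at most 29 reads a library), Ankrd37 (-0.37, edgeR adjusted p = 0.0762, with 22.7% of its exon bases overlapped by Lrp2bp on the opposite strand), the collagen prolyl hydroxylase genes P4ha1 and P4ha2, and Kdm3a, a histone demethylase. P4ha1 stood at 32.6 ± 1.88 CPM in 4OHT and 37.8 ± 3.68 CPM in Vehicle cells (SD, n = 3 each) without overlap, and its edgeR adjusted p was 0.144, or 0.0397 without Vehicle replicate 1. The intervals of Kdm3a (-0.05 to 0.21) and P4ha2 (-0.19 to 0.20) exclude a change in either direction as large as that of Vegfa.

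Within the Vehicle group the members were not spread evenly over the libraries. Vehicle replicate 3 was the highest of the Vehicle libraries for 29 of the 39 genes (74.4%) and for 15 of the 18 that fell, against 32.6% of all tested genes. The median log2 difference of that library from the mean of Vehicle replicates 1 and 2 was 0.22 for the 18 genes and 0.13 for the 39. Without it 14 members were lower and 4 higher, against 7.87% and 9.02% of all genes tested in that fit, and the members' median log2 ratio was -0.166. Aldoa, Pkm, Slc16a1 and Egln1 were the genes whose fall was lost. Tpi1, Ldha, Slc16a3, Pfkp and Bnip3 remained lower without it, with edgeR adjusted p of at most 0.000871.

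**Figure D4:**
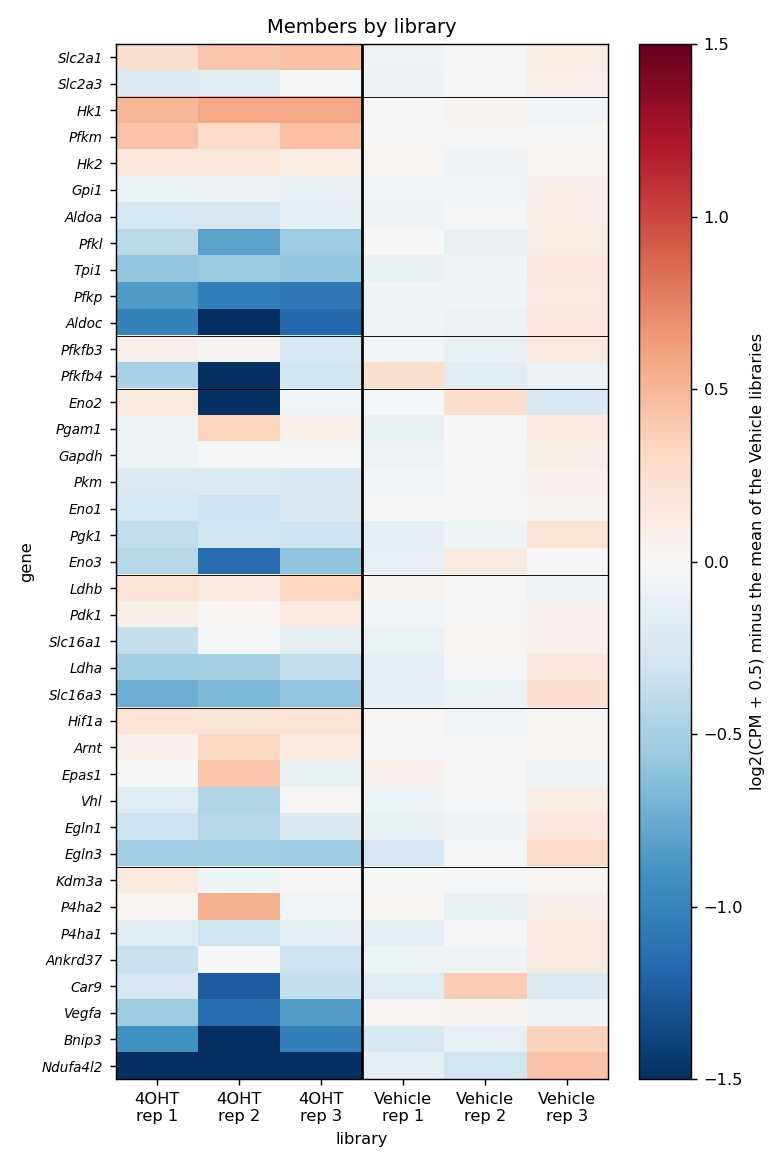
Log2(CPM + 0.5) of each member minus the mean of the Vehicle libraries, for the 3 4OHT libraries on the left and the 3 Vehicle libraries on the right, with genes grouped by role and colours limited to 1.5 either way. Vehicle replicate 3 is above the other Vehicle libraries for 29 of 39 genes. Pfkfb4, Eno2 and Ndufa4l2, with no read in 4OHT replicate 2, and Aldoc, with 1 read, reach the colour limit there. Ndufa4l2 also reaches it in the other 4OHT libraries.

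The remaining genes of these pathways were read from further lists against the same background of 10.5% lower and 11.9% higher. Of 30 other tested genes of glycolysis, glycogen and hexose transport 4 fell and 3 rose, with a median log2 ratio of -0.02. Pgm2, a phosphoglucomutase, fell (32.9 ± 7.23 CPM in 4OHT and 59.7 ± 8.12 CPM in Vehicle cells, SD, n = 3 each, edgeR adjusted p = 8.56e-06). Of 6 gluconeogenesis genes Fbp1 alone passed, lower and at under 2 CPM. Of 14 pentose phosphate genes 2 rose and 12 did not pass (median 0.03). H6pd, the first enzyme of that pathway in the endoplasmic reticulum, rose by 0.30 in log2 units (edgeR adjusted p = 0.00493, and 0.224 with DESeq2).

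Where pyruvate enters the mitochondrion 2 of 13 genes rose and 1 fell. Pdk4, a kinase that inhibits pyruvate dehydrogenase, had 15.6, 15.3 and 15.5 CPM in 4OHT and 9.09, 9.11 and 8.68 CPM in Vehicle libraries (log2 ratio 0.80, SE 0.09, edgeR adjusted p = 1.46e-06). Pdp2, a phosphatase that reverses that inhibition, also rose (0.58, edgeR adjusted p = 1.33e-05), while the related phosphatase gene Pdp1 fell (-0.41, edgeR adjusted p = 0.00707, and 0.404 with DESeq2). Of 14 tested citric acid cycle genes 2 fell and 12 did not pass, with a median of -0.07. The first by p, Sdhb, a succinate dehydrogenase subunit, stood at 100.1 ± 6.19 CPM in 4OHT and 121 ± 6.24 CPM in Vehicle cells (SD, n = 3 each, edgeR adjusted p = 0.00761).

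Other regulators of HIF gave 4 rises and 1 fall among 21, led by the coactivator gene Crebbp (log2 ratio 0.27, edgeR adjusted p = 0.0085). Its adjusted p lay between 0.0507 and 0.134 in 5 alternatives: DESeq2, quantile normalization, and without 4OHT replicate 1, Vehicle replicate 2 or Vehicle replicate 3. Of 41 other tested HIF targets 7 fell (17.1%) and 5 rose (12.2%), with a median of -0.12. Ndrg1, a stress-induced gene, had 7.29, 9.55 and 8.13 CPM in 4OHT and 16.4, 15.0 and 18.5 CPM in Vehicle libraries (log2 ratio -1.12, edgeR adjusted p = 1.42e-07). Loxl2, a lysyl oxidase, also fell (-0.99, edgeR adjusted p = 1.47e-05). Ak4, a mitochondrial adenylate kinase, rose instead, with 194, 179.5 and 193 CPM in 4OHT and 106.5, 104.7 and 121 CPM in Vehicle libraries (0.79, edgeR adjusted p = 1.88e-08). No fold change in these lists was tested against that of the 39 genes.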

How the data were processed

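The authors deposited whole-number read counts per gene symbol for 6 polyadenylated RNA libraries, and STAR, DESeq and the build mm9 are named in the submitters' processing notes. The values are whole numbers with unequal library totals and were used as raw counts. No source used here gives the counting tool, the annotation or whether strand was used.

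Genes passing filterByExpr (minimum count 10) were scaled with TMM factors and tested with edgeR 4.0.16 in R 4.3.3, by a quasi-likelihood test of 4OHT over Vehicle on all 6 libraries. Benjamini-Hochberg adjustment ran over 14458 genes, with a threshold of 0.05. Levels are CPM on TMM-scaled library sizes. Same-numbered libraries deviated together from their group means (correlations of 0.57, 0.15 and 0.39 over 3632 genes), so a fit blocked on the replicate number is given where it changes a call. Vehicle replicate 2 correlated more with 4OHT replicate 3 (0.45). No label says that replicates came from separate cultures, so p-values measure only the spread between these libraries, which may be technical. No pair of replicates agreed within sampling noise.

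Gene lengths, overlaps with opposite-strand genes and near-identical copies (found with blastn 2.17.0 at 95% identity across 50% or more of a transcript) came from GENCODE vM21 and promoters from RefSeq, both on GRCm38 and not the authors' build. The alternatives were DESeq2 1.42.0, other scalings (limma 3.58.1 for quantile normalization), other filters, the block and leaving out each library. The edgeR fit was first run on counts simulated with known changes and independent libraries, and the outcome of that run is not given here. All members were named, in full where they passed the test or belong to the HIF subunits and regulators, and from each further list at most the 3 genes with the smallest adjusted p. Members and lists were chosen with earlier results of these data known.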

Additional observations from a re-analysis of the deposited data

How the results depend on the processing

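Among the 39 members, 12 of the 18 falls and 4 of the 5 rises kept their direction and their side of the threshold under all 13 alternatives, and no called member changed sign. The number of falls ranged from 14 to 19 and that of rises from 4 to 6. Over all tested genes the count of 3233 became 977 with DESeq2 and 2088 with limma-voom on quantile-normalized counts, and leaving out 1 library gave 2368 to 3950. The cause was not tested. With the replicate block 4073 genes passed, and among members the block added Hk2 and Slc2a3 and changed no other call.

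Members that had not passed changed sign in some settings. Leaving out 1 library gave log2 ratios of -0.27 to 0.07 for Pfkfb3, -0.08 to 0.003 for Gapdh, -0.03 to 0.11 for Pgam1, -0.07 to 0.2 for Eno2, -0.08 to 0.01 for Epas1, -0.19 to 7e-05 for Vhl and -0.05 to 0.05 for P4ha2. Quantile normalization gave -0.01 for Pgam1 and -0.11 for Eno2, DESeq2 -0.05 for Eno2, RLE factors -0.001 for P4ha2 and the replicate block -0.03 for P4ha2. Among isoenzyme shares, the 4OHT minus Vehicle difference was 0.298 percentage points for Pfkl on raw counts, and leaving out 1 library gave -0.0688 to 0.0363 for Eno2 and -0.166 to 2.93 for Hif1a. Depth limits Car9, Eno2, Pfkfb4, Aldoc and Ndufa4l2, which had at most 1 read in 4OHT replicate 2. Ankrd37 had 2 reads there, Eno3 had 3, and Bnip3 and Vegfa had 5 each.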
